A study of Mus musculus with 3 samples.

Results

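Integrins are cell-surface receptors, each built from 1 α and 1 β subunit, that tie a cell to the surrounding matrix. Transcript levels of 8 integrin subunit genes (*Itga8*, *Itga9*, *Itga1*, *Itga3*, *Itga6*, *Itgav*, *Itgb1* and *Itgb6*) and of *Npnt*, which encodes the secreted matrix protein nephronectin, were measured in kidney cells of mouse embryos at E15.5 (embryonic day). These 9 genes were taken by symbol from the 32285 genes of the count matrices, and all 9 had UMIs in every library. UMIs (unique molecular identifiers) count captured transcripts. They were read in barcodes with 1000 to 6000 detected genes and at most 10% of UMIs from mitochondrial genes.

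The study made 3 droplet libraries of dissociated whole kidneys, to ask how a mutation of ENL found in Wilms tumor alters kidney development and what an ENL inhibitor does to it. In all 3 groups 1 copy of *Wt1* was replaced by the Wt1-GFPCre knock-in allele, so the controls also lack 1 working copy of *Wt1*. Enl-WT embryos carried no *Enl* mutation, and this group and Enl-T1 are labelled as not treated. Enl-T1 embryos were heterozygous for the conditional flox-T1 allele, which was switched on by Cre from the *Wt1* promoter, active in progenitors of the nephron and the stroma. The third group was Enl-T1 embryos whose mothers were given TDI-11055, a small molecule that blocks the acyl-binding pocket of ENL, by mouth at 100 mg/kg each day from E10.5 to E14.5 (Enl-T1 TDI-11055, called treated Enl-T1 below and Enl-T1 TDI-11055 in the plots). A library pooled the kidneys of several embryos, and no file ties cells to embryos. Each group was therefore 1 library, no difference between groups could be tested, and every interval below is an exact 95% interval that covers counting error only.

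ITGA8 pairs with ITGB1 on the metanephric mesenchyme and on nephron progenitors, and binds nephronectin, which ureteric epithelium lays down in its basement membrane. Loss of either partner in mice delays or prevents the outgrowth of the ureteric bud and can leave the animal without kidneys. ITGAV pairs with several β subunits, among them ITGB6, and such pairs bind latent TGF-β and other ligands through the tripeptide Arg-Gly-Asp (RGD). ITGA1 is a collagen receptor, ITGA3 and ITGA6 are laminin receptors of epithelia and podocytes, and ITGA9 binds tenascin-C and related ligands.

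ITGA8 recognises nephronectin through an RGD tripeptide, so the stretch of *Npnt* that encodes it is shown here with the RGD codons in capitals and 9 coding bases on either side. It was read 5′ to 3′ on the coding (minus) strand.
Npnt RGD site: cagaaacccAGAGGAGATgtgttcatt
In genome build GRCm38 (mm10) with GENCODE M21, *Npnt* lies on the minus strand of chromosome 3 at 132881745 to 132950291, and the RGD codons at chr3:132904665-132904673 are in coding sequence of all 6 annotated coding transcripts. The printed stretch is that of transcript ENSMUST00000042729.15 and is the same in 5 of the 6, while ENSMUST00000117811.7 differs in the bases after the codons. In the former they lie in exon 9 of 13, with the arginine at codon 399. *Itga8* lies on chromosome 2 at 12106632 to 12301922 on the minus strand, and *Itga6*, *Itgav* and *Itgb6* are on the same chromosome. UMIs were counted at the 3′ ends of transcripts, so these data do not distinguish isoforms that differ near the RGD site.

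UMIs per library came to 37221435 (Enl-WT), 63336586 (Enl-T1) and 76619303 (treated Enl-T1), and 5233, 4144 and 2754 cells passed the filter with medians of 5090, 9391 and 16931 UMIs. Libraries shared 5 to 8 of these barcodes in pairs. Cells that held *Xist* but no Y-linked UMI made up 26.5%, 73.3% and 35.1% of the libraries, and ribosomal protein genes took a median of 16.5%, 26.8% and 27.9% of a cell's UMIs. Embryo sex, depth and ribosomal share thus moved with the groups, and their part in the differences below was not tested beyond the alternatives given with the limits. Cells were clustered without the 9 genes, their ligands and partners or the *Hox* genes, and clusters were named after marker genes with the ending "-like". The NP1-like name goes with markers of self-renewing nephron progenitors such as *Six2* and *Cited1* (845, 779 and 725 cells), and the NP2/RV-like name with those of committed progenitors and renal vesicles (210, 54 and 191 cells). Only 1 of the 4 NP1-like clusters had its own markers among its 10 leading genes against other nephron cells. In the other 3 the markers were higher by 0.25 to 0.47 on the log2 scale on average, and histone or cell cycle genes were among the leading genes, so the class is a range of progenitor-like cells and its identity is not settled. Several names were weakly borne out in the mutant. The 8 podocyte markers summed to 10033 CPM (counts of a gene scaled to a common total of UMIs per class) in Enl-WT against 179 in Enl-T1 and 3137 in treated Enl-T1, and the 8 proximal tubule markers to 5723, 473 and 806 CPM. Only 46 Enl-T1 cells bore the podocyte-like and 32 the proximal tubule-like name. For those classes levels are therefore given side by side and no ratio is read. Marker sums of NP1-like cells also differed, at 1545, 630 and 1144 CPM, as did those of Foxd1-like stroma at 1812, 813 and 1359 CPM. So did those of distal tubule/loop of Henle-like cells, at 2417, 894 and 1346.5 CPM, and of renin/mesangial-like cells, at 6060, 2704 and 1879 CPM. Ureteric trunk/collecting duct-like cells were at 6433, 6385 and 5942 CPM and endothelial cells at 4549, 3655 and 3288 CPM. The composition of each class may thus differ between libraries, and its part was not tested.

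Nephronectin was an epithelial transcript. In the Enl-WT library *Npnt* stood at 1058 CPM (1010 to 1107) in proximal tubule-like cells, 892 CPM (862 to 922) in ureteric trunk/collecting duct-like cells and 585 CPM (549 to 623) in podocyte-like cells. It stood at 463 CPM (444 to 483) in ureteric tip-like cells, 296 CPM (262 to 333) in urothelium-like cells, 182 CPM (162 to 205) in NP2/RV-like cells and 130 CPM (118 to 142) in distal tubule/loop of Henle-like cells. None of these neighbouring intervals overlapped, and that order covers counting error in 1 library only. NP1-like cells held 18.4 CPM (14.8 to 22.7) and Foxd1-like stroma 4.97 CPM (2.38 to 9.14), both below the 30.8 CPM (24.7 to 37.9) of endothelial cells, the class chosen as background. Medullary stroma-like cells held 10.2 CPM (3.31 to 23.8), so the endothelial level was not a floor shared by all classes. *Npnt* in progenitors and stroma is not read as expression here, and whether its UMIs there come from expression or from free RNA was not tested.

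In the ureteric epithelium, where *Npnt* is known as the ligand for progenitor ITGA8, the level was lower in both Enl-T1 libraries. Ureteric tip-like cells held 463, 288 and 223 CPM (Enl-WT, Enl-T1, treated Enl-T1), and trunk/collecting duct-like cells held 892, 486 and 486 CPM. The ratio of Enl-T1 to Enl-WT was 0.622 (0.581 to 0.665) in tip-like cells and 0.544 (0.517 to 0.573) in trunk/collecting duct-like cells. Most genes had a ratio under 1 in this contrast, with a median log2 ratio of -0.30 over all genes tested in the ureteric epithelium. Relative to that median, *Npnt* over the whole ureteric epithelium was at -0.53 on the log2 scale, just short of the 1.5-fold used here to call a gene higher or lower, and without the subtraction it was past it. The ratio of treated Enl-T1 to Enl-T1 was 0.921 (0.887 to 0.957) over the ureteric epithelium, a log2 ratio of -0.13 relative to the median.

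Drawn from the same UMIs, the share of cells with an *Npnt* UMI was also lower in both Enl-T1 libraries once depth was made equal. After each cell was thinned to 2000 UMIs, trunk/collecting duct-like cells with one made up 80.0% (76.4 to 83.2) in Enl-WT against 61.2% (56.5 to 65.8) in Enl-T1 and 59.8% (54.2 to 65.1) in treated Enl-T1. Without thinning, at 4526, 10350 and 16778 UMIs in the median cell, they were 94.9%, 96.6% and 94.8%, so no such difference showed. Tip-like cells gave 52.3%, 38.8% and 31.2% thinned and 83.6%, 88.4% and 89.3% unthinned, at medians of 5768, 13047 and 22398 UMIs. Endothelial cells, taken as background, gave 5.99%, 5.86% and 1.72% thinned and 12.4%, 19.9% and 11.2% unthinned, at medians of 5664, 10452 and 14336 UMIs. NP1-like cells were at or below that background, with 3.95%, 3.48% and 1.52% thinned.

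**Figure D1:**
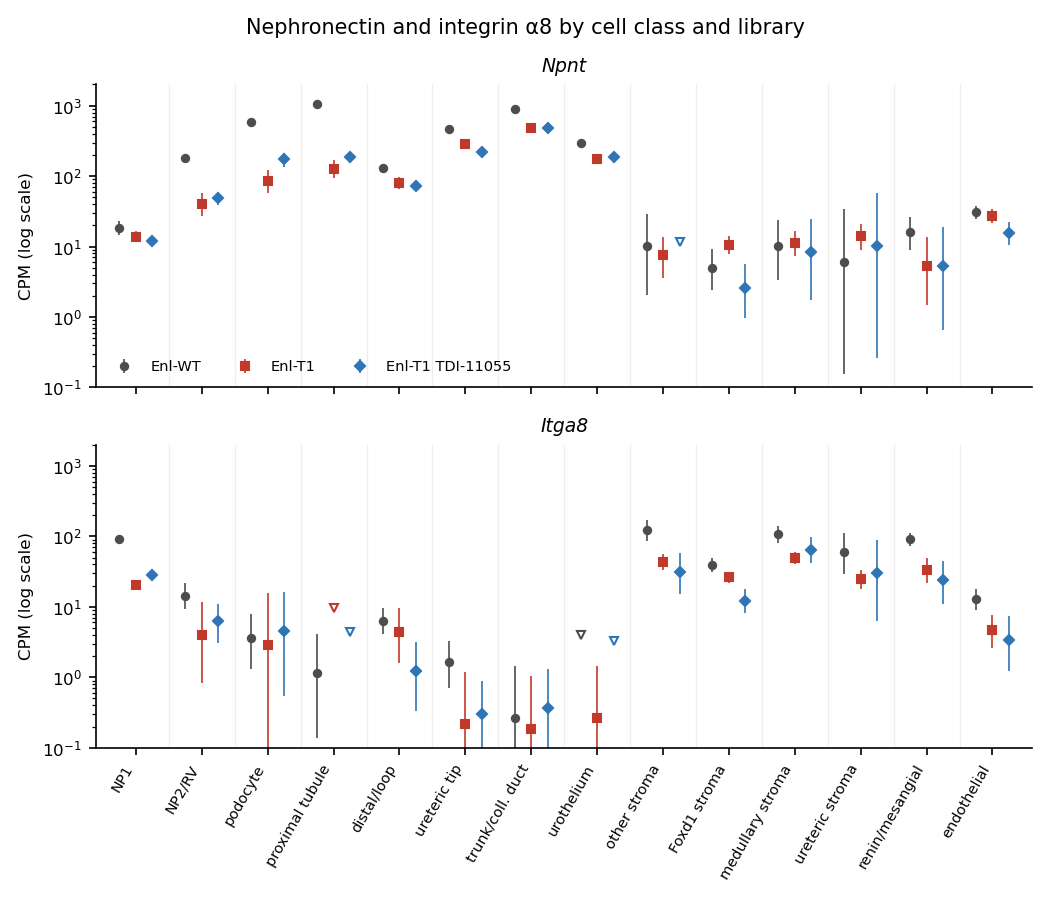
Levels of *Npnt* and *Itga8* in CPM (log axis) for each cell class and library, with exact 95% intervals that cover counting error only. *Npnt* is high in ureteric, tubule- and podocyte-like classes and *Itga8* in NP1-like and stromal classes, and in NP1-like cells *Itga8* is at 90.5 CPM in Enl-WT against 20.1 and 28.4 CPM in the Enl-T1 libraries.

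Along the nephron the Enl-T1 libraries also held less *Npnt*. NP2/RV-like cells had 182, 40.2 and 48.6 CPM (290, 30 and 86 UMIs), with a ratio of Enl-T1 to Enl-WT of 0.220 (0.146 to 0.321). Distal tubule/loop of Henle-like cells had 130, 80.9 and 73.3 CPM and a ratio of 0.625 (0.504 to 0.769). Podocyte-like cells had 585, 85.2 and 173 CPM and proximal tubule-like cells 1058, 127 and 190 CPM, in classes whose own markers were as sparse in Enl-T1 as stated above. In Foxd1-like stroma *Npnt* was past the call for higher in Enl-T1 (10, 51 and 6 UMIs, 4.97, 10.6 and 2.62 CPM), but all 3 values lay below the endothelial level of the same library, at 30.8, 27.4 and 15.7 CPM.

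*Itga8*, the receptor subunit for nephronectin, was the member with the largest difference among the 6 that passed the filter in NP1-like cells. NP1-like cells held 427 UMIs or 90.5 CPM (82.1 to 99.5) in Enl-WT, 190 UMIs or 20.1 CPM (17.3 to 23.2) in Enl-T1 and 345 UMIs or 28.4 CPM (25.5 to 31.6) in treated Enl-T1. Enl-T1 over Enl-WT gave a ratio of 0.222 (0.186 to 0.264). Relative to the median of all genes in NP1-like cells, whose own log2 ratio was -0.35, that is a log2 ratio of -1.82. Under 14 alternative settings the value ranged from -2.39, in cells that held Y-linked UMIs but no *Xist*, to -1.43, in *Xist* cells without Y-linked UMIs, so *Itga8* was lower in Enl-T1 under each of the 14.

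The NP1-like class was made of 4 clusters, and *Itga8* was lower in each. The ratio of Enl-T1 to Enl-WT was 0.202 (0.131 to 0.308), 0.272 (0.194 to 0.376), 0.182 (0.127 to 0.259) and 0.314 (0.221 to 0.443) in the 4 clusters, of which the second is the one with NP1 markers among its leading genes. All 4 intervals lay below 0.5. Within-cluster values were added after the class values had been seen.

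With TDI-11055, *Itga8* in NP1-like cells was 1.42 (1.18 to 1.70) times its Enl-T1 level, a log2 ratio of 0.49 relative to the median, which is within 1.5-fold. The level of 28.4 CPM remained well under the 90.5 CPM of Enl-WT. The 4 clusters were not alike in this contrast, with ratios of 1.94 (1.30 to 2.95), 1.10 (0.785 to 1.55), 1.73 (1.204 to 2.51) and 0.838 (0.546 to 1.28). The value passed 1.5-fold under 3 of 14 alternatives: 0.65 on the log2 scale against genes of similar exonic length, and also after thinning and among cells with Y-linked UMIs only, where it was 1.24.

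Thinned to 2000 UMIs, the share of NP1-like cells with an *Itga8* UMI was 16.5% (14.1 to 19.2) in Enl-WT against 3.09% (1.99 to 4.56) in Enl-T1 and 4.98% (3.51 to 6.83) in treated Enl-T1. Without thinning, at 5084, 11357 and 18785 UMIs in the median cell, it was 35.0%, 16.1% and 28.6%. Ureteric epithelium, which should lack *Itga8*, gave 0.467%, 0% and 0.0990% thinned and 1.61%, 0.597% and 0.588% unthinned, at medians of 5226, 11709 and 19318 UMIs. The share of 0% comes from 1168 cells and allows up to 0.315%. *Itga8* in NP1-like cells was thus above the background in every library.

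**Figure D2:**
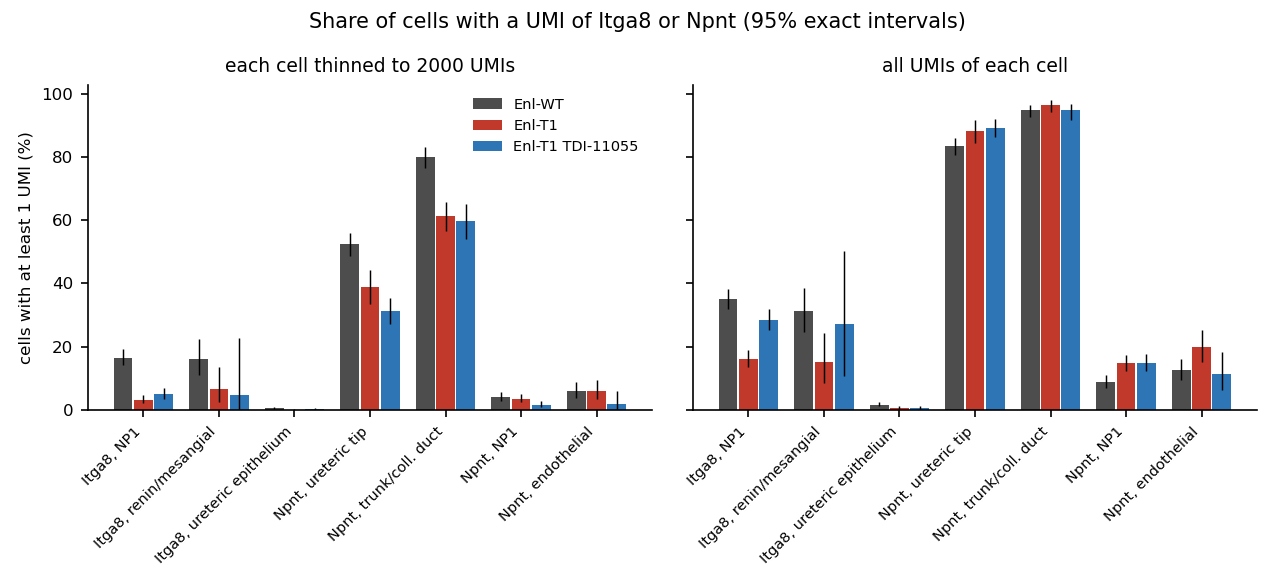
Share of cells with at least 1 UMI of *Itga8* or *Npnt*, in percent, by class and library, with each cell thinned to 2000 UMIs (left) and with all its UMIs (right), with exact binomial 95% intervals. After thinning, NP1-like cells with *Itga8* make up 16.5% in Enl-WT against 3.09% and 4.98% in the Enl-T1 libraries, and ureteric epithelium, the background class for *Itga8*, lies under 0.5% in all 3.

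*Itga8* was not limited to progenitors. In Enl-WT it stood at 124 CPM (87.1 to 170) in stroma-like cells of no narrower name, 108 CPM (80.9 to 141) in medullary stroma-like cells, 90.8 CPM (72.5 to 112) in renin/mesangial-like cells and 39.3 CPM (31.1 to 48.9) in Foxd1-like stroma. The first 3 of these intervals overlapped with each other and with that of NP1-like cells, so their order is within counting error. NP2/RV-like cells held 14.47 CPM (9.17 to 21.7), well under the progenitors they form from.

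*Itga8* was lower in Enl-T1 in medullary stroma-like and renin/mesangial-like cells as well, but not past 1.5-fold in Foxd1-like stroma. Medullary stroma-like cells held 108, 49.5 and 65.1 CPM, with a ratio of Enl-T1 to Enl-WT of 0.458 (0.328 to 0.647). Renin/mesangial-like cells held 90.8, 33.5 and 23.9 CPM, with a ratio of 0.369 (0.226 to 0.582). In Foxd1-like stroma, where the levels were 39.3, 26.4 and 12.2 CPM (79, 127 and 28 UMIs), the ratio was 0.672 (0.503 to 0.901), at -0.32 relative to the median. That value depended on the setting, at -0.78 in *Xist* cells without Y-linked UMIs and at 0.75 with cycling cells left out, so no direction is read from it.

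In Foxd1-like stroma the larger step was between the Enl-T1 libraries. The ratio of treated Enl-T1 to Enl-T1 was 0.463 (0.296 to 0.702), a log2 ratio of -1.10 relative to the median, and lower under each of 13 alternatives that gave a value. It was 0.510 (0.292 to 0.849) and 0.593 (0.238 to 1.30) in the pair of Foxd1-like clusters that held most of the *Itga8* UMIs. Neither had Foxd1 stroma markers among its leading genes, which included histone or cell cycle genes. Such markers were higher there by only 0.166 and 0.439 on the log2 scale on average. The cluster with most of them among its leading genes held 5, 1 and 0 *Itga8* UMIs (Enl-WT, Enl-T1, treated Enl-T1). The *Itga8* level and step are thus those of the class as named, whose identity is not settled. The ratio of treated Enl-T1 to Enl-T1 lay above 1 in NP1-like cells (1.42) and below it in Foxd1-like stroma (0.463). This difference between classes could not be tested with 1 library each. In endothelial cells *Itga8* was low throughout, at 12.8, 4.72 and 3.35 CPM (37, 15 and 6 UMIs).

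*Itga9*, the tenascin-C-binding α subunit, was a stromal transcript that was lower in Enl-T1 and did not differ between the Enl-T1 libraries by more than counting error. Foxd1-like stroma held 184 CPM (166 to 204) in Enl-WT, 79.8 CPM (72.0 to 88.1) in Enl-T1 and 77.7 CPM (66.7 to 90.0) in treated Enl-T1. Enl-T1 over Enl-WT gave a ratio of 0.432 (0.374 to 0.5001), a log2 ratio of -0.95 relative to a median of -0.26, and lower under each of 14 alternatives. The ratio with TDI-11055 to Enl-T1 was 0.974 (0.811 to 1.17). Over the 4 Foxd1-like clusters the first ratio ran from 0.297 to 0.569.

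The other stromal classes gave the same picture for *Itga9*. Medullary stroma-like cells held 169, 59.9 and 65.1 CPM, and renin/mesangial-like cells held 186, 92.4 and 63.8 CPM. NP1-like cells held 51.5, 23.5 and 27.03 CPM, with a ratio of Enl-T1 to Enl-WT of 0.456 (0.378 to 0.549) and a log2 ratio of -0.79 relative to the median. Against genes of similar exonic length that value was -0.57, no longer past 1.5-fold. *Itga9* was scarce in the ureteric epithelium, at 7.69, 3.17 and 2.21 CPM.

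*Itgav*, which encodes an α subunit of RGD-binding integrins, was widespread, and in progenitors and stroma it was lower in both Enl-T1 libraries. NP1-like cells held 62.7 CPM (55.8 to 70.3) in Enl-WT, 28.4 CPM (25.1 to 32.1) in Enl-T1 and 24.6 CPM (21.9 to 27.5) in treated Enl-T1, and Foxd1-like stroma held 98.9, 41.3 and 41.5 CPM. The ratio of Enl-T1 to Enl-WT was 0.454 (0.383 to 0.537) in NP1-like cells, at -0.79 relative to the median, and 0.418 (0.342 to 0.511) in Foxd1-like stroma, at -1.0. Against genes of similar exonic length the value in NP1-like cells was -0.40, within 1.5-fold, and that in Foxd1-like stroma -0.61, still past it.

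Over the whole ureteric epithelium the larger step of *Itgav* was between the Enl-T1 libraries. The levels were 72.7 CPM (67.8 to 77.9), 56.3 CPM (52.6 to 60.2) and 24.5 CPM (22.3 to 26.9) in Enl-WT, Enl-T1 and treated Enl-T1. Enl-T1 was at 0.774 (0.703 to 0.853) of Enl-WT, within 1.5-fold of the median, and TDI-11055 at 0.435 (0.388 to 0.488) of Enl-T1, a log2 ratio of -1.21 relative to the median. This second value was lower under each of 14 alternatives. It was 0.676 (0.540 to 0.849) in tip-like, 0.530 (0.438 to 0.640) in trunk/collecting duct-like and 0.593 (0.443 to 0.782) in urothelium-like cells.

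The cells of these classes took different shares of each library, so a value over the whole ureteric epithelium mixes levels with make-up. Urothelium-like cells, which had the highest *Itgav* of the ureteric classes at 108, 90.1 and 53.5 CPM, were 167 of 1742 ureteric cells in Enl-WT, 280 of 1173 in Enl-T1 and 66 of 1021 in treated Enl-T1. In podocyte-like cells, where the Enl-WT level of *Itgav* was highest of all classes at 160.0 CPM, the Enl-T1 libraries held 59.6 and 78.5 CPM.

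*Itga1*, the collagen-binding α subunit, was found in tubule, vessel-wall and stromal classes. In Enl-WT it stood at 537 CPM (504 to 573) in proximal tubule-like cells and 355 CPM (318 to 395) in renin/mesangial-like cells. Next came ureteric stroma-like cells at 176 CPM (118 to 252), other stroma-like cells at 130 CPM (92.7 to 178) and distal tubule/loop of Henle-like cells at 113 CPM (103 to 124), whose intervals overlapped, against 1.91 CPM in NP1-like cells. Proximal tubule-like cells held 71.3 and 94.3 CPM in Enl-T1 and treated Enl-T1. Renin/mesangial-like cells held 355, 429 and 383 CPM, so *Itga1* was not lower there in Enl-T1, and their marker sum was 6060, 2704 and 1879 CPM. NP2/RV-like cells held 94, 5 and 6 UMIs or 59.1, 6.70 and 3.39 CPM, a ratio of Enl-T1 to Enl-WT of 0.113 (0.0360 to 0.274).

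In Foxd1-like stroma *Itga1* was within 1.5-fold in Enl-T1, with 66.6, 60.4 and 39.7 CPM and a ratio of 0.907 (0.737 to 1.12). With TDI-11055 the ratio to Enl-T1 was 0.657 (0.513 to 0.834), and this call was kept under 7 of 14 alternatives, so it rests on the setting. *Itga1* in the ureteric epithelium was at 0.508 (0.411 to 0.627) of Enl-WT in Enl-T1, a call kept under 11 of 13 alternatives. It was lost against genes of similar exonic length, at -0.31, and with cycling cells left out. The ureteric epithelium was also the class taken as background for *Itga1*, so this call is not read as expression.

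*Itga3* and *Itga6* encode laminin-binding α subunits. *Itga3*, which podocytes need to hold the glomerular basement membrane, was highest in podocyte-like cells at 199 CPM (178 to 221) in Enl-WT, with 31.2 CPM (15.6 to 55.9) in Enl-T1 and 76.3 CPM (52.8 to 107) in treated Enl-T1. Trunk/collecting duct-like cells followed with 53.5, 28.9 and 29.1 CPM, and NP1-like cells, where *Itga3* was under the 5 CPM needed for a ratio, held 3.39, 4.23 and 3.71 CPM.

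*Itga6* was the more broadly expressed of these genes. In Enl-WT it stood at 394 CPM (374 to 415) in distal tubule/loop of Henle-like cells, 300.3 CPM (266 to 337) in renin/mesangial-like cells, 296 CPM (277 to 317) in endothelial cells, 271 CPM (247 to 296) in proximal tubule-like cells and 223 CPM (201 to 248) in NP2/RV-like cells. The intervals of renin/mesangial-like, endothelial and proximal tubule-like cells overlapped. NP2/RV-like cells held 223, 41.5 and 55.9 CPM, a ratio of Enl-T1 to Enl-WT of 0.186 (0.124 to 0.269), and distal tubule/loop of Henle-like cells held 394, 152 and 156 CPM. In NP1-like cells, which stood at 42.4, 25.1 and 25.6 CPM, *Itga6* was within 1.5-fold of the median.

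Endothelial cells were an exception for *Itga6*. They held 296, 311 and 198 CPM, with a ratio of Enl-T1 to Enl-WT of 1.05 (0.956 to 1.15). With TDI-11055 the ratio to Enl-T1 was 0.639 (0.564 to 0.722), a log2 ratio of -0.59 relative to the median, and the call was kept under 7 of 14 alternatives.

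**Figure D3:**
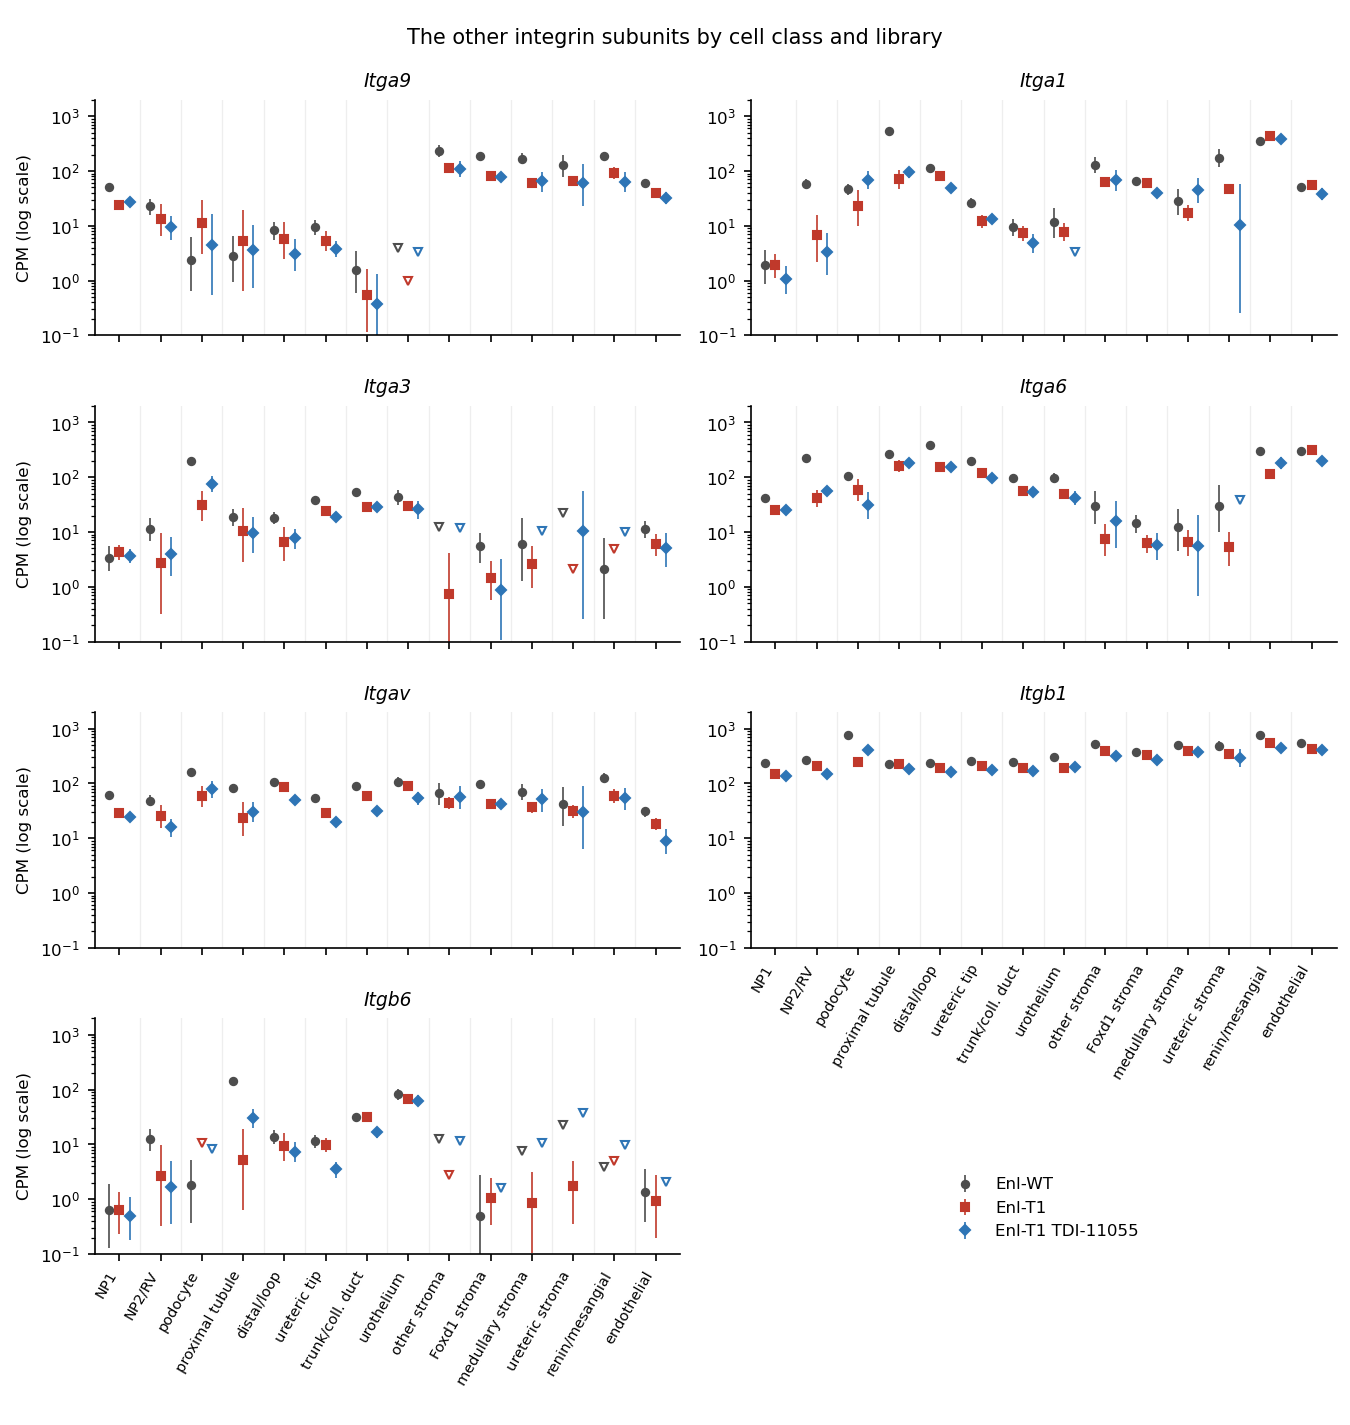
Levels of the other 7 members in CPM (log axis) by cell class and library, with exact 95% intervals for counting error. *Itga9* is highest in stromal classes, *Itga3* in podocyte-like cells and *Itgb6* in epithelial classes, while *Itgb1* is present in every class shown.

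*Itgb1*, the β subunit shared by ITGA1, ITGA3, ITGA6, ITGA8 and ITGA9, was within 1.5-fold of the median in both contrasts in NP1-like cells, Foxd1-like stroma, the ureteric epithelium and endothelial cells. Its highest levels in Enl-WT were in renin/mesangial-like cells at 776 CPM and podocyte-like cells at 774 CPM, and the latter held 250.0 and 415 CPM in the Enl-T1 libraries. NP1-like cells held 233 CPM (219 to 247), 149 CPM (141 to 157) and 137 CPM (130 to 144), and Foxd1-like stroma held 368, 335 and 273 CPM. Enl-T1 over Enl-WT gave a ratio of 0.640 (0.591 to 0.693) in NP1-like cells, 0.910 (0.834 to 0.994) in Foxd1-like stroma, 0.738 (0.702 to 0.777) in the ureteric epithelium and 0.783 (0.728 to 0.843) in endothelial cells. The value relative to the median in NP1-like cells was -0.30. Only the unsubtracted ratio in NP1-like cells was past it. In NP1-like cells the partner *Itga8* thus had a ratio of 0.222 and *Itgb1* one of 0.640, with intervals that did not overlap.

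*Itgb6*, an epithelial β subunit that pairs with ITGAV alone, was found in proximal tubule-like cells at 142 CPM (125 to 161) in Enl-WT, against 5.29 and 30.7 CPM in the Enl-T1 libraries, and in urothelium-like cells at 82.3, 68.0 and 63.3 CPM. Endothelial cells, taken as background, had 1.38, 0.944 and 0 CPM. The 0 there allows up to 2.06 CPM.

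Over the whole ureteric epithelium *Itgb6* was higher in Enl-T1 and lower with TDI-11055, at 24.3 CPM (21.5 to 27.4), 32.1 CPM (29.3 to 35.0) and 11.02 CPM (9.58 to 12.6). The ratio of Enl-T1 to Enl-WT was 1.32 (1.13 to 1.53), a log2 ratio of 0.70 relative to the median. Within classes it was 0.861 (0.570 to 1.29) in tip-like, 1.01 (0.794 to 1.28) in trunk/collecting duct-like and 0.826 (0.637 to 1.08) in urothelium-like cells, each within 1.5-fold of its median. Urothelium-like cells, which hold more *Itgb6* than tip-like cells in each library, made up a larger share of the lineage in Enl-T1. The part of this share in the value over the lineage was not tested. Cells of unnamed clusters count in the lineage but in none of these classes.

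With TDI-11055 the ratio of *Itgb6* to Enl-T1 was 0.344 (0.291 to 0.405) over the lineage, a log2 ratio of -1.56 relative to the median, and lower under each of 14 alternatives. Here the classes were lower too: tip-like cells held 11.5, 9.90 and 3.501 CPM and trunk/collecting duct-like cells 31.6, 31.9 and 16.6 CPM, with ratios to Enl-T1 of 0.354 (0.221 to 0.561) and 0.520 (0.398 to 0.674). In urothelium-like cells the ratio was 0.931 (0.706 to 1.21). *Itgav* and *Itgb6*, partners in 1 receptor, were therefore both lower with TDI-11055 in tip- and trunk-like cells as classes, though *Itgav* in tip-like cells, at -0.54 relative to the median, was short of 1.5-fold.

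**Figure D4:**
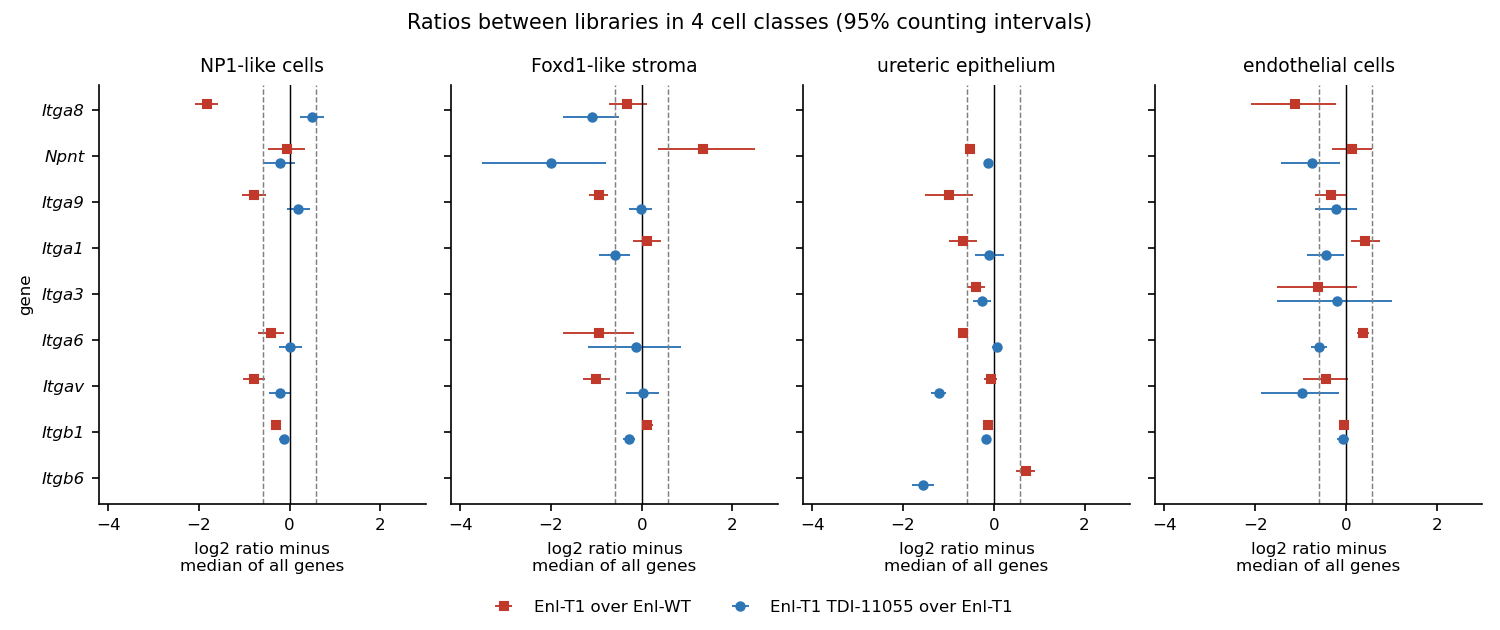
Log2 ratio of each member relative to the median of all genes, comparing Enl-T1 with Enl-WT and treated with untreated Enl-T1, in 4 cell classes, with intervals for counting error. The lines at 1.5-fold bound the values called within, and *Itga8* in NP1-like cells lies at -1.82 in the first contrast and 0.49 in the second.

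The members were then counted in 4 chosen classes (NP1-like cells, Foxd1-like stroma, the whole ureteric epithelium and endothelial cells), among those with an average of at least 5 CPM over both libraries of a contrast. In NP1-like cells 6 members passed that filter, and for Enl-T1 over Enl-WT 3 were lower (*Itga8*, *Itga9* and *Itgav*), 0 higher and 3 within 1.5-fold. Among all genes tested in that class, 13.7% were lower and 13.9% higher. For treated Enl-T1 over Enl-T1 all 6 were within 1.5-fold, where 7.77% of genes were lower and 5.85% higher.

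Foxd1-like stroma had 7 members past the filter, of which 3 were lower in Enl-T1 (*Itga9*, *Itgav* and *Itga6*) against 13.4% of all genes, and 1 higher (*Npnt*, at the background level) against 15.2%. With TDI-11055, 3 were lower than in Enl-T1 (*Itga8*, *Npnt* and *Itga1*) against 14.8% of genes, and 0 higher against 11.4%. *Npnt* there, with 51 and 6 UMIs, lay below the endothelial level in both libraries and is not read as expression, which leaves 2. *Itga6* stood at only 14.4, 6.23 and 5.67 CPM in this stroma.

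In the ureteric epithelium 8 members passed the filter in the first contrast, with 3 lower in Enl-T1 (*Itga9*, *Itga1* and *Itga6*) against 10.1% of genes and 1 higher (*Itgb6*) against 13.0%. Of these calls, that of *Itga9* was kept under all 10 alternatives that gave a value, *Itga1* under 11 of 13, *Itgb6* under 11 of 14 and *Itga6* under 10 of 14, and with cycling cells left out 0 members were past 1.5-fold. This lineage was also the class taken as background for *Itga9*, at 7.69 and 3.17 CPM, and for *Itga1*, at 19.6 and 9.95 CPM (Enl-WT, Enl-T1). Those 2 calls are not read as expression, and the part of free RNA in them was not tested. In the second contrast, 2 of 7 were lower in this lineage with TDI-11055 (*Itgav* and *Itgb6*) against 10.2%, and 0 higher against 7.18%. In endothelial cells 2 of 8 were lower in Enl-T1 (*Itga8* and *Itga3*) against 12.1%, and 0 higher against 13.4%. The *Itga3* call rests on 33 UMIs in Enl-WT and 19 in Enl-T1 and was kept under 7 of 12 alternatives. With TDI-11055, 3 of 7 were lower (*Npnt*, *Itga6* and *Itgav*) against 15.8%, and 0 higher against 11.4%, where *Npnt* is at the level taken as background. Both contrasts use the same Enl-T1 library, so a chance low or high value there enters both with opposite sign.

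Counts in 4 further classes were added after the others had been seen. In NP2/RV-like cells all 9 members passed the filter and 7 were lower in Enl-T1, all but *Itga9* and *Itgb1*, against 20.1% of genes, and 0 higher against 17.7%. Against genes of similar exonic length 6 were, since *Itgav* was then within 1.5-fold. That library held only 54 such cells, in which *Itga8* had 3 UMIs, and the composition of the class was not tested. Distal tubule/loop of Henle-like cells had 2 of 9 lower (*Itga3* and *Itga6*) against 15.8%, and both stayed so by length. Tip-like cells had 2 of 8 lower (*Itga1* and *Itgav*) against 10.3% and trunk/collecting duct-like cells 2 of 7 (*Npnt* and *Itga3*) against 11.8%, of which 0 in either class stayed past 1.5-fold by length. No member was higher in these 3 classes, against 15.2%, 10.9% and 14.0% of genes. With TDI-11055 over Enl-T1, *Itgb6* was lower in tip-like cells (1 of 7 against 8.05%), and *Itga1*, *Itgav* and *Itgb6* in trunk/collecting duct-like cells (3 of 7 against 6.93%, 2 by length), with 0 higher against 5.35% and 6.62% of genes. Distal tubule/loop of Henle-like cells had 2 of 7 lower (*Itga1* and *Itgav*) against 12.7%, 0 by length, and 0 higher against 9.58%. NP2/RV-like cells had 1 of 7 lower (*Itga1*) against 24.3% and 1 higher (*Itga8*, 11 and 3 UMIs) against 17.1%, but by length 0 were lower and 2 higher.

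Gene length moved with these contrasts. Across genes, which are not independent replicates, the log2 ratio of Enl-T1 to Enl-WT was lower for genes with longer exonic sequence, with Spearman's rho of -0.45 in NP1-like cells, -0.41 in Foxd1-like stroma, -0.51 in the ureteric epithelium and -0.34 in endothelial cells. For treated Enl-T1 over Enl-T1 it was -0.41, -0.37, -0.23 and -0.42. The members are mostly long genes: *Itga1* has 18599 exonic bases (percentile 98.7 of genes tested), *Itgav* 10744 and *Itga8* 7368 (percentile 75.2), while *Npnt* has 5026 and *Itgb1* 4081. Against the median of genes of similar exonic length (10 bins), *Itga8* in NP1-like cells was at -1.61 for Enl-T1 over Enl-WT, and was then the only member there past 1.5-fold. In Foxd1-like stroma *Itga9* at -0.72, *Itgav* at -0.61 and *Itga6* at -0.72 stayed past it. What lies behind the trend with length was not tested.

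**Figure D5:**
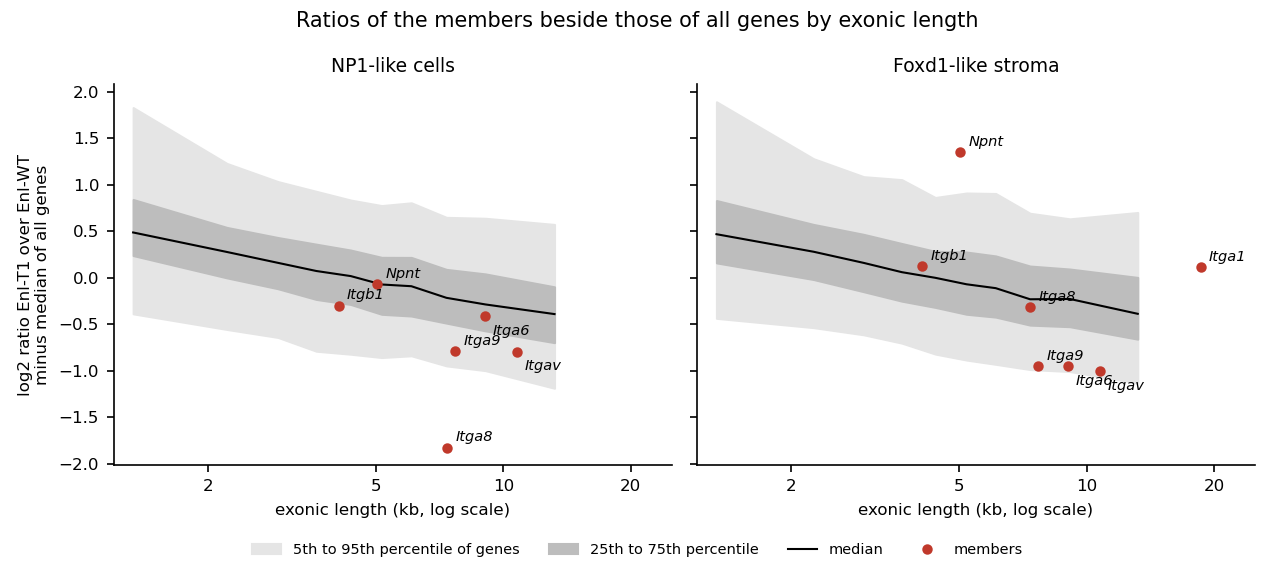
Log2 ratio of Enl-T1 over Enl-WT, relative to the median of all genes, against exonic length in kb (log axis) in NP1-like cells and Foxd1-like stroma, by 10 bins of genes (lines and bands: median and percentiles of all genes), with the members as points. Longer genes have lower ratios, and *Itga8* in NP1-like cells lies below genes of its own length, at -1.61 from their median.

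The genes around these receptors were read in 6 lists: 18 other integrin subunits, 14 non-laminin ligands, 4 genes of the complex that anchors nephronectin in the basement membrane (*Fras1*, *Frem1*, *Frem2* and *Grip1*), 10 laminin chains, 19 cytoplasmic partners of integrin tails and 3 tetraspanins that associate with laminin-binding integrins. List medians are log2 ratios relative to the median of all genes, which is 0 on that scale, and the shares of all genes past 1.5-fold are those given above for each class and contrast.

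The anchoring genes are the closest to nephronectin. In NP1-like cells *Frem1* held 25.4, 4.23 and 13.9 CPM (120, 40 and 169 UMIs), a ratio of Enl-T1 to Enl-WT of 0.166 (0.113 to 0.240) and of treated Enl-T1 to Enl-T1 of 3.29 (2.32 to 4.77). It was 1 of 4 genes tested there and the other 3 were within 1.5-fold in Enl-T1, with a list median of -0.31 (0.01 with length taken into account). In the ureteric epithelium, which lays down nephronectin, *Frem2* was at 0.348 (0.326 to 0.372) of its Enl-WT level of 252 CPM and *Fras1* at 0.486 (0.459 to 0.513) of 280 CPM, 2 of 3 genes tested. Against genes of similar length only *Frem2* stayed past 1.5-fold there, at -0.85, with *Fras1* at -0.38. Foxd1-like stroma had 1 of 3 lower in Enl-T1 (*Fras1*, 81.0 against 30.7 CPM). Endothelial cells had 2 of 2 lower, *Frem2* with 34 UMIs against 2 and *Fras1* with 31 against 6. These were low levels, at 11.8 and 10.7 CPM in Enl-WT endothelial cells, and the part of free RNA in them was not tested. They are not read as endothelial expression. With TDI-11055, *Grip1* was lower in NP1-like cells at 0.597 (0.445 to 0.799) and in the ureteric epithelium at 0.571 (0.501 to 0.651), 1 of 4 and 1 of 3 genes tested, 0 of 3 were past 1.5-fold in Foxd1-like stroma and none passed the filter in endothelial cells. By length 1 anchoring gene was also higher with TDI-11055 in the ureteric epithelium.

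Laminin chains, the ligands of ITGA3 and ITGA6, were lower in Enl-T1 in 4 of 7 tested in NP1-like cells (median -0.75), 4 of 6 in Foxd1-like stroma (-1.25), 4 of 8 in the ureteric epithelium (-0.81) and 4 of 6 in endothelial cells (-0.82). With length taken into account the medians were -0.36, -0.94, -0.50 and -0.64, and the numbers lower 2, 4, 4 and 3. *Lamb1* in Foxd1-like stroma held 135 CPM in Enl-WT and 42.4 CPM in Enl-T1, a ratio of 0.315 (0.261 to 0.379), and in the ureteric epithelium 351 and 132 CPM, a ratio of 0.378 (0.358 to 0.399). *Lama1* in the ureteric epithelium was at 0.302 (0.267 to 0.342), and *Lamb3* was the 1 chain higher there, with 53 UMIs against 153. With TDI-11055 over Enl-T1, 2 of 5, 2 of 5, 3 of 7 and 1 of 6 chains were lower in the same 4 classes, and 0 higher. Against genes of similar length the numbers lower were 1, 1, 2 and 1, and 1 chain was higher in endothelial cells.

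Of the non-laminin ligands, tenascin-C and emilin, which bind ITGA9, were lower beside it. *Tnc* in NP1-like cells held 18.01 CPM in Enl-WT and 4.34 CPM in Enl-T1, a ratio of 0.241 (0.162 to 0.353), and *Emilin1* was at 0.420 (0.264 to 0.665), 2 of 7 ligands tested, with 0 higher. In Foxd1-like stroma 4 of 12 were lower, among them *Postn* at 0.463 (0.412 to 0.521), *Emilin1* at 0.509 (0.451 to 0.575) and *Tnc* at 0.512 (0.345 to 0.762). Against genes of similar length 2 of the 12 were lower (*Postn* at -0.62 and *Emilin1* at -0.65) and 2 higher, with *Tnc* at -0.48. In endothelial cells 3 of 7 were lower and 1 higher.

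The ureteric epithelium gave the largest ligand value. *Spp1*, which encodes the RGD protein osteopontin, held 4.83, 65.3 and 7.07 CPM (54, 1011 and 134 UMIs), so it was high in the Enl-T1 library only. Its ratio of Enl-T1 to Enl-WT was 13.5 (10.3 to 18.1), and of treated Enl-T1 to Enl-T1 0.108 (0.0896 to 0.130). This value is over the whole lineage, whose make-up differed between libraries. The list had 2 of 5 higher and 1 lower in Enl-T1 there. With TDI-11055, fibronectin (*Fn1*) was lower in NP1-like cells at 0.488 (0.423 to 0.562) and in endothelial cells at 0.378 (0.274 to 0.513), while *Mfge8* in NP1-like cells was higher at 1.74 (1.57 to 1.93). List medians in Enl-T1 were -0.42 in NP1-like cells, -0.20 in Foxd1-like stroma, 0.57 in the ureteric epithelium and -0.52 in endothelial cells, and with length taken into account -0.03, 0.08, 0.39 and -0.27, so that of Foxd1-like stroma turned in sign. The numbers of ligands higher and lower with TDI-11055 were 1 and 1 of 4 in NP1-like cells, 1 and 6 of 11 in Foxd1-like stroma, 0 and 2 of 5 in the ureteric epithelium and 1 and 2 of 6 in endothelial cells. Against genes of similar length the numbers lower were 1, 4, 2 and 1, and the numbers higher were unchanged.

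Of the other integrin subunits, 2 were tested in NP1-like cells, where *Itgb5* was lower in Enl-T1 at 0.524 (0.413 to 0.664). Ureteric epithelium had 3 of 7 lower and 1 higher. *Itgb8*, another partner of ITGAV, held 29.9, 6.46 and 9.91 CPM there, a ratio of Enl-T1 to Enl-WT of 0.216 (0.171 to 0.271), and in Foxd1-like stroma it was at 0.344 (0.229 to 0.516). In Foxd1-like stroma 2 of 5 were higher and 1 lower, with *Itga4* at 13.4, 24.5 and 11.3 CPM, and in endothelial cells 2 of 5 were higher and 2 lower. With TDI-11055 the numbers lower were 0 of 2, 2 of 4, 3 of 7 and 1 of 4 in NP1-like, Foxd1-like, ureteric and endothelial cells, and *Itgb8* in the ureteric epithelium, at 1.53 (1.197 to 1.98), was the 1 higher. By length these numbers lower were 0, 1, 3 and 1, with 2 higher in the ureteric epithelium. For Enl-T1 over Enl-WT by length, 2 were higher and 2 lower in the ureteric epithelium, and 2 higher and 1 lower in endothelial cells.

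Of the cytoplasmic partners, 4 of 14 were lower and 1 higher in Enl-T1 in NP1-like cells, 3 of 15 and 1 in Foxd1-like stroma, 2 of 15 and 1 in the ureteric epithelium, and 1 of 16 and 2 in endothelial cells, with medians of -0.25, -0.08, -0.10 and 0.05. *Tln1* (talin, which links β tails to actin) was at 0.523 (0.475 to 0.577) and *Vcl* (vinculin) at 0.483 (0.416 to 0.560) in NP1-like cells, but against genes of similar length they were at -0.30 and -0.42, within 1.5-fold. On that scale 1 of 14 was lower and 1 higher in NP1-like cells, 2 lower and 0 higher in Foxd1-like stroma, 1 and 1 in the ureteric epithelium and 1 and 2 in endothelial cells. With TDI-11055, 1 of 14, 1 of 14, 2 of 15 and 2 of 16 were lower and 0 higher. By length the numbers lower were then 1, 0, 2 and 1. The tetraspanins *Cd151*, *Cd9* and *Cd81* had positive medians in Enl-T1, from 0.35 in NP1-like cells to 0.77 in the ureteric epithelium, where 2 of 3 were higher: *Cd9* held 199 and 361 CPM, a ratio of 1.82 (1.73 to 1.91), and *Cd81* 153 and 212 CPM. With length taken into account those medians were 0.19 and 0.59. Foxd1-like stroma had 1 of 3 higher, and NP1-like and endothelial cells had 0 of 3 past 1.5-fold. With TDI-11055 over Enl-T1, *Cd151* was higher in NP1-like cells at 1.80 (1.55 to 2.10), and *Cd9* lower in the ureteric epithelium at 0.605 (0.581 to 0.629), while Foxd1-like stroma had 1 of 3 higher and 1 lower and endothelial cells 1 of 3 higher. By length 0 were higher in Foxd1-like stroma and in endothelial cells.

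The genes whose pattern over the 13 Enl-WT classes of at least 50 cells was most like that of a member were also named, by Pearson's correlation of log2(CPM + 10). These correlations describe 13 classes of 1 library, which share its preparation, and carry no test. For *Itga8* they were *Tpm2* (0.98), *Ppp1r14a* (0.97), *Tril* (0.961), *Rem1* (0.959) and *Des* (0.943), with the highest levels in medullary stroma-like or renin/mesangial-like cells. *Tpm2* encodes a tropomyosin and *Des* the intermediate filament protein desmin. For *Npnt* they were *Arhgef16* (0.949), *Pcbd1* (0.949), *Pkp2* (0.939), *C1galt1c1* (0.937) and *Marveld2* (0.932), each highest in an epithelial class. *Pkp2* encodes a desmosomal plakophilin and *Marveld2* the tight-junction protein tricellulin.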

How the data were processed

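Mouse embryonic kidney cells were profiled with the 10x Genomics 3′ v3.1 chemistry in 3 libraries, 1 per group (Enl-WT, Enl-T1, Enl-T1 TDI-11055). The authors deposited raw UMI counts per gene and barcode, made with Cell Ranger 6.1.2 on mm10 per the submitters' processing notes. The deposited counts carried no normalisation and no correction for free RNA. The study's filter (1000 to 6000 genes, mitochondrial UMIs at most 10%) left within 2 cells of the study's own number in each library for which it gives one. Total counts ranged from 37221435 to 76619303 UMIs, and intervals cover counting error only.

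Seurat 5.3.0 was run in R 4.3.3 (SeuratObject 5.2.0) to integrate the libraries by anchors on 2000 variable genes. Left out of these were 120 outcome genes (the members, the lists and the *Hox* genes) and 128 technical genes. Cells were clustered on 30 components at resolution 0.5, then by lineage on 20 components at 0.8. A cluster took the name with most markers among its 10 leading genes and, where none had any, the name within its lineage whose markers had the highest mean log2 fold. It stayed unnamed where that mean was not above 0, fewer than 3 markers were detected, or markers of another lineage led. That scoring rule was set after clusters were seen, and a difference from the study may come from the rebuilt names. Doublets were left in. Scrublet (scanpy 1.11.5) marked 136, 0 and 0 barcodes and was judged not to have worked in the last 2 libraries, so the highest-scored 0.8% per 1000 barcodes were left out there in an alternative.

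UMIs were summed per class and library (Python 3.11.15, numpy 2.4.6, scipy 1.17.1) and given as CPM with exact Poisson intervals. Intervals of ratios are exact and use the split of both counts. The log2 ratio minus the median over genes with an average of at least 5 CPM was called past 1.5-fold. The steps were tested on simulated data. No test between groups was possible. The study tested cells as replicates, which was not done here. Exonic lengths and coordinates are from GENCODE M21 on GRCm38.

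The members, gene lists, markers and named-gene rule (all members, and up to 3 genes per list and direction past 1.5-fold whose interval leaves out the median) were chosen with earlier results of these data known.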

Additional observations from a re-analysis of the deposited data

How the results depend on the processing

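Each class rests on 1 library per group, so no setting says how embryos differ. No paired analysis was possible because each group has 1 library. Of the member values recomputed under single settings, 644 stayed within counting error of the reported one and 116 moved further. Of those past 1.5-fold, 1 was reversed, the ratio of *Itgb6* in the ureteric epithelium for Enl-T1 over Enl-WT, which was -0.24 relative to the median among cells with Y-linked UMIs only. Of those within 1.5-fold, 5 turned in sign and passed it. For Enl-T1 over Enl-WT these were *Itga8* in Foxd1-like stroma, at 0.75 with cycling cells left out, and *Npnt* in NP1-like cells, at 1.03 with a mitochondrial share of at most 5%. For TDI-11055 over Enl-T1 they were *Itga6* (0.66, cells with Y-linked UMIs only) and *Itgav* (-0.99, thinned) in Foxd1-like stroma and *Itga1* in endothelial cells (0.75, thinned). The cause was not tested.

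The count of members past 1.5-fold depended on the setting as follows. In NP1-like cells for Enl-T1 over Enl-WT it was 3, but 5 with no median subtracted and 1 against genes of similar exonic length. For TDI-11055 over Enl-T1 it was 0, but 1 against genes of similar length, 1 with no filter beyond 1 UMI, 2 after thinning to 2000 UMIs, 1 in cells with Y-linked UMIs only and 1 at 1.4-fold. In Foxd1-like stroma it was 4 and 3 for the contrasts, but 2 and 1 with a minimum of 20 CPM, and 1 for TDI-11055 with a mitochondrial share of at most 5%. In the ureteric epithelium it was 4 for Enl-T1 over Enl-WT, but 2 against genes of similar length, 2 with a minimum of 20 CPM and 0 with cycling cells left out. In endothelial cells it was 2 for Enl-T1 over Enl-WT, but 4 with no median subtracted, 0 with a minimum of 20 CPM, and 1 each with a mitochondrial share of at most 5%, after thinning and in *Xist* cells only. For TDI-11055 over Enl-T1 it was 3, but 1 against genes of similar length and 1 in *Xist* cells only. Clustering on all variable genes, median-of-ratios scaling, a total without ribosomal, mitochondrial and haemoglobin genes and doublet removal changed none of these counts by over 1.5 times. The clustering on all variable genes named 1 cluster erythroid, with 41, 128 and 568 cells of Enl-WT, Enl-T1 and treated Enl-T1. Those cells were in none of the compared classes under that setting. The comparison within clusters, the counts in 4 further classes and the length correction of the gene lists were chosen after seeing the data.

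Depth limits the smaller classes, such as the 46 and 29 podocyte-like cells of the Enl-T1 libraries and the 10 ureteric stroma-like cells of the treated one, and members under 5 CPM were not compared.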
